A study of Rattus norvegicus with 4 samples.

Results

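The start of rat chromosome 20 holds the major histocompatibility complex, called RT1 in the rat, and its open chromatin was described here in Schwann cells (SCs) infected with a lentivirus. Open DNA was mapped by ATAC-seq, where a transposase cuts and tags accessible chromatin, and each library was deposited as a list of peaks on the rn6 build. Peaks of the 4 lists that shared at least 1 bp were merged, which gave 58879 regions, and 361 of these lay wholly between positions 0 and 8000000 of chr20. No region crossed the end of that window. The window was chosen by position, with earlier results of these data known, and its members exist only because peaks were called there. How many there were and how strong they were beside other windows is therefore given as a description, and tests compare only the groups.

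All cells were primary rat SCs of the sciatic nerve, kept in medium with forskolin and heregulin and infected for 48 h at 2 units of virus per cell, as the labels give it, in the presence of polybrene. The Lenti-AS libraries came from cells infected with a virus made to express the Egr2 promoter antisense RNA, Egr2-AS, from the pLVX-DsRed-Express2-N1 vector. The Lenti-GFP libraries came from cells infected with the control virus, made from the pLVX-AcGFP1-N1 vector, so both groups were virus-infected, and the vectors also differed in their fluorescent protein. Each group had 2 libraries of 100000 cells, called biological replicates in the labels, which do not say whether they came from separate animals or cultures. Tests between these libraries measure only their own spread. The markers of SCs and of other nerve cells were not checked, since no gene annotation of rn6 was used here.

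The MHC is one of the most gene-dense stretches of the mammalian genome. Class I molecules display peptides from inside the cell to cytotoxic T cells, class II molecules display engulfed material to helper T cells, and the class III stretch between them holds complement, cytokine and heat shock genes. SCs are not professional antigen-presenting cells, but can raise class I and class II molecules on their surface in inflamed or injured nerve. The rat complex differs from the human one in the copies and order of its class I genes, and its main class I locus, RT1-A, lies on the other side of the class II genes from the rest.

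In the RefSeq annotation of a later assembly, GRCr8, chr20 held 639 protein-coding genes, and the 44 coding genes with an RT1 symbol all lay on this chromosome. The first of them, RT1-M2, was gene 41 in order and the last, RT1-A1, was gene 229. Along this stretch stood Gabbr1 and Mog, then Flot1, Ier3, Ddr1 and Pou5f1, and then the cytokine genes Lta, Tnf and Ltb. The heat shock genes Hspa1l, Hspa1a and Hspa1b, the complement genes C2, Cfb and C4a, and Ager and Notch4 followed. The class II genes RT1-Da, RT1-Db1, RT1-Db2, RT1-Ba and RT1-Bb stood next, followed by the peptide transporter genes Tap1 and Tap2 with the immunoproteasome genes Psmb8 and Psmb9. Then came the class II genes RT1-DMb and RT1-DMa, Brd2, the class II genes RT1-DOa and RT1-Ha, and Rxrb and Ring1, before the class I genes RT1-A3, RT1-A2 and RT1-A1, beyond which lay Tapbp, Daxx, Hmga1, Fkbp5, Mapk14 and Cdkn1a. This order is background on neighbours only. No region below was assigned to a gene, because GRCr8 positions cannot be read on rn6, and that the window holds the RT1 genes on rn6 is general knowledge not checked here.

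The libraries differed in depth, of which only a relative measure was recovered. It ranged from 1 in Lenti-GFP replicate 2 to 2.38 in Lenti-GFP replicate 1, with 1.06 and 1.41 in the Lenti-AS libraries. The complete lists held 35646 to 54289 peaks.

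The window was densely covered with peaks in every library. It held 323 peaks in Lenti-AS replicate 1, 318 in Lenti-AS replicate 2, 325 in Lenti-GFP replicate 1 and 259 in Lenti-GFP replicate 2. The Lenti-AS values lay inside the range of the Lenti-GFP values, and the lowest count was in the shallowest library. Lenti-AS libraries had 320.5 ± 3.54 peaks on average and Lenti-GFP libraries 292 ± 46.7 (SD over 2 libraries each; exact two-sided permutation test, p = 1, where the design allows no p below 0.333). As a share of each list the window held 0.746% and 0.689% of the Lenti-AS peaks and 0.599% and 0.727% of the Lenti-GFP peaks. The group means of this share, 0.718% ± 0.0398 and 0.663% ± 0.0905 (SD over 2 libraries each), differed by less than the spread of the Lenti-GFP replicates (exact two-sided permutation p = 0.667). Both differences turned to the other direction when a single Lenti-GFP library was left out, to -4.5 peaks without replicate 2 and to -0.00900 percentage points without replicate 1.

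Peaks covered 194 kb and 195 kb of the window in the Lenti-AS libraries, and 228 kb and 145 kb in the Lenti-GFP libraries. This was between 1.81% and 2.85% of its length. The median peak there was 511 bp and 565 bp wide in Lenti-AS and 619 bp and 497 bp wide in Lenti-GFP, and in each library it was wider than the median of the complete list.

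**Figure D1:**
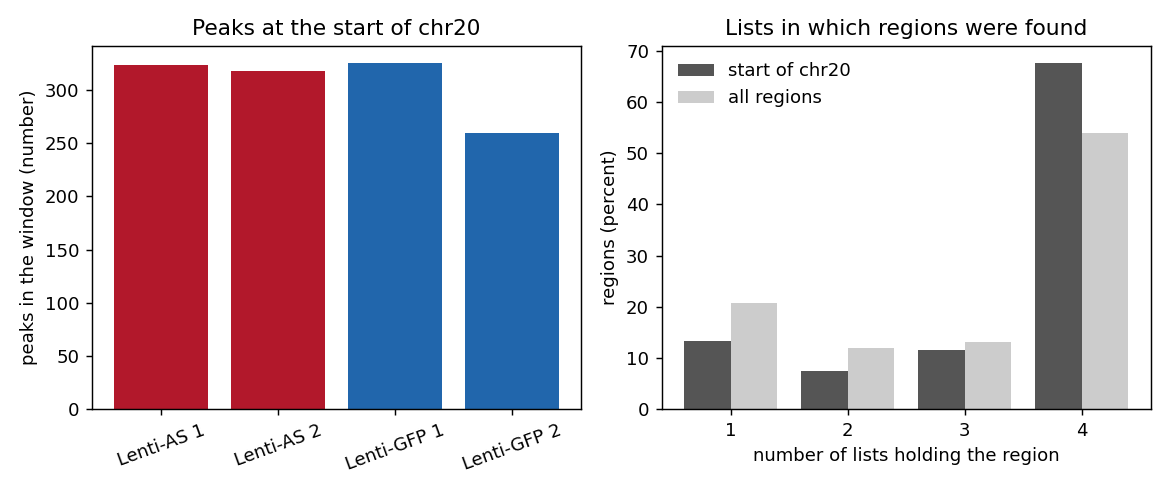
Left, number of peaks at the start of chr20 in each library (bars, 1 library each; Lenti-AS red, Lenti-GFP blue). Right, percent of merged regions found in 1, 2, 3 or 4 of the lists, for the 361 regions at the start of chr20 and for all regions; 67.6% of the former and 54.0% of the latter were in all 4 lists.

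Set beside the 319 complete 8 Mb windows of chr1 to chr20, the start of chr20 was among the densest. Its 361 regions, or 45.1 per Mb, put it in place 8, where the windows had a median of 173 regions and a range of 6 to 445. In the single libraries it was in place 6 to 8. Regions lay closer together here than elsewhere, with a median gap of 8975 bp against 16606 bp over all regions. With a gap of at most 5 kb taken to join neighbours, 183 of the 361 regions (50.7%) stood in 78 runs, against 31.0% of all regions.

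The members were also shared between libraries more often than regions at large. Of the 361, 244 (67.6%) were found in all 4 lists, 42 in 3 lists, 27 in 2 lists and 48 in 1 list only. Over all regions 54.0% were in all 4 lists, and by this share the window was in place 2 of the 319. Regions found in Lenti-GFP replicate 1 alone, the deepest library, made up 22 members (6.09%) against 14.9% of all regions. Lenti-AS replicate 1 alone held 16 members (4.43% against 2.60%), Lenti-AS replicate 2 alone held 10 (2.77% against 2.89%), and Lenti-GFP replicate 2 alone held 0 (against 0.372%).

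How strong the members were depended on the measure. The local background of a peak is the read level expected there from the surroundings in the same library. The deposited fold enrichment divides the reads at the summit by this background, with 1 added to each. Both terms were recovered here from the fold and its −log10 p, as the summit pileup (the number of reads stacked at the summit) and the local background. By fold the members were weak. Their median fold was 5.51 and 4.87 in the Lenti-AS libraries and 4.09 and 5.11 in the Lenti-GFP libraries, below the median of the complete list in each of the 4 libraries (6.04, 5.39, 4.36 and 5.70, in the same order). By summit pileup they were strong, with medians of 59, 63.5, 73 and 45 reads against 42, 45, 53 and 38 in the complete lists. The local background was high as well. Its median was 4.62, 4.31, 3.21 and 4.18 times the genome-wide level of the library, against 2.92, 2.66, 2.28 and 3.0 times over the complete lists.

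Among the windows, the median member took place 279 of 319 by its mean percentile of fold (36.3, where the windows had a median of 44.4) and place 8 by its mean percentile of pileup (56.0 against 34.7). The low fold and the high pileup were seen in every library. By fold the window was in place 281 to 300 in the single libraries, and by pileup in place 5 to 34. Other dense windows had a low fold too. Among the 32 densest, whose median for fold was 36.1, the start of chr20 was in place 16, and by pileup, where their median was 49.2, it was in place 3.

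Within the window the regions were not evenly spread. Cut into 1 Mb blocks from the chromosome start, it held 5, 13 and 20 regions in the first 3 blocks and 74, 68, 62, 46 and 73 in the other five. The largest stretch with no region in any list ran from position 238027 to 1818015, a gap of 1580 kb. Of the 57745 gaps between regions on the numbered chromosomes, 89 were at least as long. Before it stood 5 regions, and 2 of them were the strongest of the window by fold. The next gaps were 375 kb, from 2606830 to 2982298, and 253 kb, from 2247669 to 2500654.

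The strongest members found in all 4 lists ranked near the top of every list. The region chr20:237147-238026, the last before the large gap, had folds of 14.5 and 14.9 in the Lenti-AS libraries and 11.5 and 13.7 in the Lenti-GFP libraries. Its mean percentile of fold was 99.4. The region chr20:157032-157954 followed, with folds of 13.5, 13.2, 9.80 and 11.5. The first region beyond the large gap, chr20:1818016-1819193, was also among the 5 strongest (12.4, 11.7, 9.53 and 10.5). So was chr20:3042144-3042626 (12.6, 11.0, 10.7 and 12.1), which lay at the genome-wide background level in every library, so that pileups of 38, 41, 63 and 35 reads sufficed for these folds. By contrast chr20:5508292-5509600 had pileups of 182, 170, 178 and 109 reads and folds of 12.9, 10.9, 8.34 and 10.4, in a stretch whose local background was 4.10 to 6.28 times the genome-wide level. The lowest fold of each of these 5 regions was in Lenti-GFP replicate 1, the deepest library, which had the lowest median fold. Ranks within each list were therefore used to compare groups.

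The widest member combined a high pileup with a high local background. This region, chr20:6351274-6353505, spanned 2232 bp and had pileups of 137, 123, 122 and 79 reads at percentiles 92.8, 89.8, 86.7 and 82.8 of its lists. Its local background was 15.9, 12.1, 6.99 and 8.32 times the genome-wide level, and its folds were 4.01, 3.54, 3.42 and 4.57. The other members of the 5 widest were chr20:7929824-7931747, chr20:6968088-6969913, chr20:7907107-7908896 and chr20:3298733-3300509, between 1777 bp and 1924 bp. Regions in all 4 lists had a median width of 780.5 bp here and 798 bp over the genome.

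Close neighbours could differ in how many libraries showed them. The runs with the most regions were chr20:4946845-4959564 with 5 regions, chr20:4406964-4423156 with 5 regions and chr20:3711554-3720893 with 4 regions. A further run of 4 regions, chr20:7131822-7142533, spanned more bases than the last of these. In the first run 3 of the 5 regions were peaks of Lenti-GFP replicate 1 alone, with pileups of 26 to 28 reads, while the last region, chr20:4958798-4959564, had folds of 11.4, 10.6, 8.05 and 10.9 and pileups of 167, 175, 160 and 97 reads. The second run held 2 regions called in both Lenti-AS libraries and in neither Lenti-GFP library.

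Whether regions were present in only 1 group was then examined, where a region counted for a group if both of its lists and neither list of the other group held a peak. Both Lenti-AS lists alone held 10 members (2.77%), against 1.80% of all regions, and both Lenti-GFP lists alone held 1 member (0.277%), against 1.21% of all regions. In the rest of chr20 these shares were 2.41% and 0.515%, with 28 and 6 of 1164 regions. A further 36 members were in every list but that of Lenti-GFP replicate 2, the shallowest (9.97%, against 9.87% of all regions). Leaving out Lenti-GFP replicate 1 thus gave 47 Lenti-AS-only members (13.7%), against 13.8% of all regions. Leaving out Lenti-GFP replicate 2 gave 23 Lenti-GFP-only members (6.37%), against 16.2% of all regions. Without Lenti-AS replicate 1 there were 20 Lenti-AS-only members (5.80%, against 4.84%), and without Lenti-AS replicate 2 there were 26 (7.39%, against 4.56%).

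The 10 Lenti-AS-only members were narrow, with a median width of 347.5 bp, and most were weak, with a median of 18.6 for the mean percentile of fold. Only 2 of the 10 lay above the middle of their lists. The strongest by this measure was chr20:5414344-5414611, with folds of 8.72 and 8.94 and pileups of 26 and 33 reads in Lenti-AS replicates 1 and 2. The next, chr20:3920679-3920933, had folds of 11.3 and 7.10 and pileups of 34 and 26 reads. Both lay at the genome-wide background level. So did chr20:189092-189399 (folds 5.82 and 5.52) and chr20:4178447-4178943 (6.46 and 4.99), the latter 91.4 kb from the nearest region found in both groups. The last of the 5 highest by percentile, chr20:6488486-6488872, had folds of 5.07 and 4.20.

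A different kind of Lenti-AS-only member stood in crowded stretches. The region chr20:5445955-5446425, 1.25 kb from the nearest region of both groups, had pileups of 68 and 63 reads, above the median of its lists, but folds of only 2.79 and 2.35 on a background 11.3 and 9.36 times the genome-wide level. The regions chr20:4418637-4419066 (pileups 59 and 57, folds 2.95 and 2.39) and chr20:7891079-7891349 (57 and 56, 3.45 and 3.0) were alike in this. At chr20:4422901-4423156 the folds were as low, 2.79 and 2.75, with pileups of 41 and 45 reads, close to the medians of those lists. These regions were chosen for the text after their values were seen. At this depth a peak missing from a list shows only that none passed the caller's threshold there, not that the site was closed. The Lenti-GFP-only member, chr20:4437022-4437420, had folds of 3.03 and 4.64 and pileups of 24 and 20 reads in Lenti-GFP replicates 1 and 2, and stood 8.83 kb from the nearest region found in both groups.

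At the edge of the window the regions were weak on both sides. Just inside were chr20:7999221-7999576, found in Lenti-AS replicate 2 and Lenti-GFP replicate 1 with folds of 3.07 and 3.78, and chr20:7998532-7998874, found in Lenti-GFP replicate 1 with a fold of 2.84. Just outside were chr20:8005115-8005343, found in Lenti-AS replicate 1 with a fold of 4.47, and chr20:8034897-8035202, found in Lenti-GFP replicate 1 with a fold of 3.47.

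To compare the strength of single regions between groups, fold was ranked within each list and the ranks were turned into normal scores, with an absent peak at the lowest rank. The scores of the 46625 regions found in at least 2 lists were fitted with limma, and 313 members were among them. The 10 Lenti-AS-only members and the Lenti-GFP-only member entered through the lists of 1 group, so that they had to differ. The other 48 members, found in 1 list each, were not tested. A difference is the mean score in Lenti-AS minus that in Lenti-GFP. With Benjamini-Hochberg adjustment over all regions, limma called 0 members and 0% of all regions at a threshold of 0.05. At an unadjusted p under 0.05, 8 members were higher in Lenti-AS (2.56% of 313), against 2.49% of all regions, and 6 were lower (1.92%), against 3.08%. No other tool was run on these scores.

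By fold the 313 members in at least 2 lists lay about evenly on both sides of no difference. Their median difference was -0.000580, with 156 of 313 (49.8%) positive, and over all regions 51.8% were positive. The median score of the members was -0.104 and -0.239 in the Lenti-AS libraries and -0.278 and -0.107 in the Lenti-GFP libraries, and the groups overlapped. Both Lenti-AS libraries ranked above both Lenti-GFP libraries in 44 members (14.1%), against 19.0% of all regions, and below both in 43 (13.7%), against 14.2%. Of the 311 windows with at least 20 tested regions, the start of chr20 was in place 208 by its median difference. This evenness depended on the libraries and on the filter. Without Lenti-GFP replicate 1 the median was -0.133 with 37.0% positive, against 45.9% of all regions, and without Lenti-GFP replicate 2 it was 0.0967 with 60.3% positive, against 55.4%. With every merged region ranked and none left out, the median difference of the 361 members was 0.0950 and 63.4% were positive, against 53.9% of all regions.

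In the 244 members found in all 4 lists no absent peak enters the ranks. Their median score by fold was -0.379 and -0.425 in the Lenti-AS libraries and -0.381 and -0.379 in the Lenti-GFP libraries, where again the groups overlapped. The median difference was -0.0198, with 46.7% positive, against 52.2% of the 31790 regions of this kind. Both Lenti-AS libraries ranked above both Lenti-GFP libraries in 40 members (16.4%), against 20.7%, and below both in 53 (21.7%), against 18.0%. At an unadjusted p under 0.05 limma had 4 members higher (1.64%), against 3.87%, and 14 lower (5.74%), against 4.80%, and with adjustment it called 0.

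The 8 members higher at an unadjusted p under 0.05 included 5 of the Lenti-AS-only regions and none found in all 4 lists, so that nothing is read from their number. The regions named next were all in the 4 lists, and their differences by fold are those of the fit on regions in at least 2 lists. The highest was 0.58 (SE 0.27) at chr20:3460226-3460815, with folds of 7.70 and 6.57 in Lenti-AS and 4.50 and 4.87 in Lenti-GFP. At chr20:7416361-7417267, also 0.58 (SE 0.27), the folds were 11.2 and 9.56 against 6.09 and 7.39. In both regions the folds of the groups did not overlap, and the adjusted p was 0.955 and 0.953 in limma. Next came chr20:4043399-4043922 (0.53), chr20:1962035-1962557 (0.52) and chr20:2003663-2004229 (0.50).

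In the opposite direction the largest difference was -1.17 (SE 0.41) at chr20:2606180-2606829, the last region before the 375 kb gap, with folds of 4.85 and 5.26 in Lenti-AS and 7.34 and 6.03 in Lenti-GFP. Its pileups were 14 and 19 reads in Lenti-AS and 43 and 17 reads in Lenti-GFP, so the high value was that of Lenti-GFP replicate 1 and the pileups of the groups overlapped. Its adjusted p was 0.82 in limma without a block. It was the 1 member called, at an adjusted p of 0.041, when the fit was limited to regions in all 4 lists and given the replicate number as a block. That fit called 0.164% of all its regions lower. The labels give replicate numbers but do not say whether these pair libraries across the groups. The other 4 largest falls were chr20:4792075-4792457 (-0.91), chr20:4647915-4648491 (-0.85), chr20:1874387-1875256 (-0.77) and chr20:4800405-4800729 (-0.71), none of them past the threshold after adjustment.

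Ranked by summit pileup in place of fold, the 244 members in all 4 lists were placed higher in Lenti-AS. The median score was 0.306 and 0.276 in the Lenti-AS libraries and 0.135 and 0.166 in the Lenti-GFP libraries, and the groups did not overlap. The median difference was 0.181, with 193 of 244 members (79.1%) positive, against 51.1% of all such regions. Both Lenti-AS libraries ranked above both Lenti-GFP libraries in 118 members (48.4%), against 23.2%, and below both in 26 (10.7%), against 22.5%. At an unadjusted p under 0.05, 32 members were higher (13.1%), against 6.01%, and 6 were lower (2.46%), against 6.15%. With adjustment limma called 0 members and 0% of all such regions.

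The local background was ranked higher in Lenti-AS as well. In the same 244 members its median score was 0.568 and 0.612 in the Lenti-AS libraries and 0.443 and 0.441 in the Lenti-GFP libraries. The median difference was 0.174, and 218 of 244 members (89.3%) were positive, against 51.5% of all such regions. Both Lenti-AS libraries ranked above both Lenti-GFP libraries in 175 of these members (71.7%), against 30.8% of all such regions, and below both in 13 (5.33%), against 29.0%. At an unadjusted p under 0.05, 88 members were higher (36.1%), against 12.9%, and 1 was lower (0.410%), against 13.1%. With adjustment limma called 0 members and 0% of all such regions, the lowest adjusted p among the members being 0.0857, at chr20:5422167-5422579. With the replicate number as a block, this 1 member was called higher (adjusted p of 0.0423 in limma), as were 0.0377% of all such regions. Its local background was 1.63 and 1.28 times the genome-wide level in Lenti-AS and at that level in both Lenti-GFP libraries. With Lenti-AS replicate 2 left out, 12 members passed (4.92% of 244), against 1.22% of all regions then tested, and in that fit the lone Lenti-AS library is assumed to vary like the others. Fold sets the pileup against the local background, and whether their shifts offset each other in the ranks by fold was not tested. Pileup and background come from the same reads and are not independent measures.

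**Figure D2:**
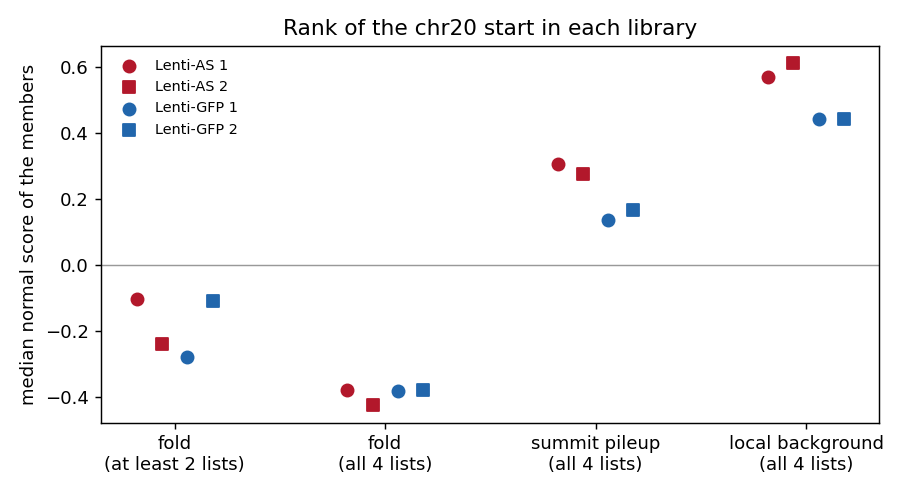
Median normal score of the members in each library (vertical axis, 0 being the middle of a list) when regions are ranked by fold (313 members in at least 2 lists, then 244 members in all 4 lists), by summit pileup or by local background (both 244 members); each point is 1 library. The Lenti-AS points (red) lie above the Lenti-GFP points (blue) for pileup and background, and the groups overlap by fold.

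The shift in pileup was seen in each pair of libraries across groups but was not of 1 size. Over the 244 members the median difference was 0.204 for Lenti-AS replicate 1 minus Lenti-GFP replicate 1 and 0.202 for Lenti-AS replicate 1 minus Lenti-GFP replicate 2. It was 0.141 and 0.123 for Lenti-AS replicate 2 minus the same libraries. Within groups, Lenti-AS replicate 1 stood above Lenti-AS replicate 2 by 0.0734, and Lenti-GFP replicate 1 minus Lenti-GFP replicate 2 was -0.00614. The local background gave 0.232 and 0.182 for Lenti-AS replicate 1 minus Lenti-GFP replicates 1 and 2, and 0.176 and 0.136 for Lenti-AS replicate 2 minus them. Within groups it gave 0.0443 for Lenti-AS replicate 1 minus replicate 2 and -0.0413 for Lenti-GFP replicate 1 minus replicate 2. By fold the pairs across groups went both ways, from 0.0486 to -0.0595.

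The single members given here by pileup were chosen after their values were seen, from the fit on regions in all 4 lists. The largest difference was 1.32 (SE 0.17; adjusted p of 0.251 in limma) at chr20:5422167-5422579, a weak region. It had pileups of 22 and 24 reads in Lenti-AS and 26 and 13 reads in Lenti-GFP, which placed it at percentiles 16.9, 16.7, 8.4 and 0.4 of its lists. By fold its difference was -0.04. The next, chr20:7963373-7963934 (0.80, SE 0.37), had pileups of 34, 25, 30 and 19 reads at percentiles 39.7, 18.8, 15.8 and 10.8. In the opposite direction the largest difference was -0.93 (SE 0.25; adjusted p of 0.315) at chr20:2606180-2606829, the region that was also lowest by fold. Then came chr20:4697669-4699192 (-0.65, SE 0.15), one of the strongest of the window by pileup, with 181 and 171 reads in Lenti-AS and 204 and 146 reads in Lenti-GFP at percentiles 98.7, 98.1, 99.8 and 99.6. None of these passed the threshold after adjustment.

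**Figure D3:**
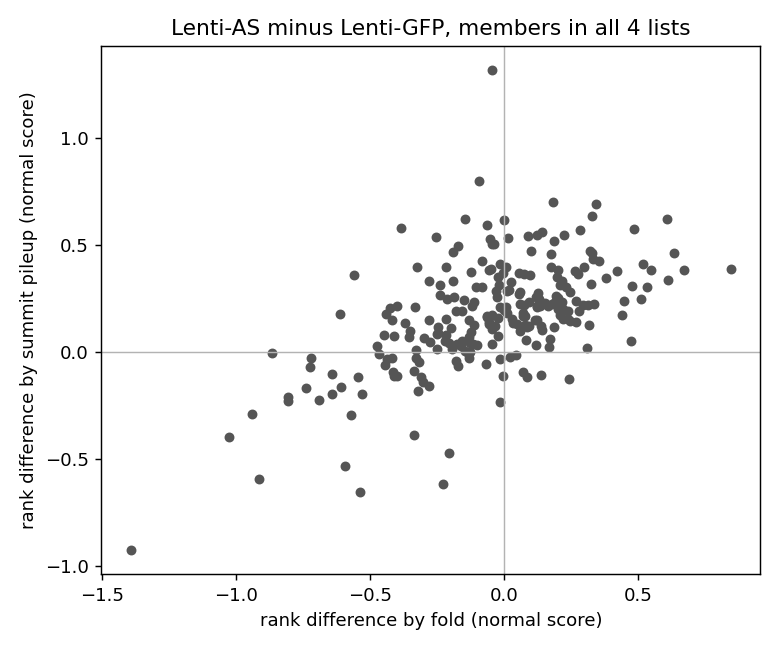
Difference in normal score, Lenti-AS minus Lenti-GFP, by fold (horizontal axis) and by summit pileup (vertical axis) for each of the 244 members in all 4 lists; each point is 1 region. By pileup 79.1% lie above 0, and by fold 46.7% do.

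The shift in pileup was not even along the window. In the third block the median difference was -0.0938 over 13 members in all 4 lists, and in the second it was 0.0131 over 11. The fourth to eighth blocks had medians of 0.144, 0.208, 0.191, 0.272 and 0.231. The seventh block stood highest, and 27 of its 28 members in all 4 lists (96.4%) were positive. By fold the medians of the second to eighth blocks lay between -0.0455 and 0.0999. The first block held only 2 such members. The Lenti-AS-only members were spread over 6 of the 8 blocks, with 3 each in the fifth and the sixth.

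**Figure D4:**
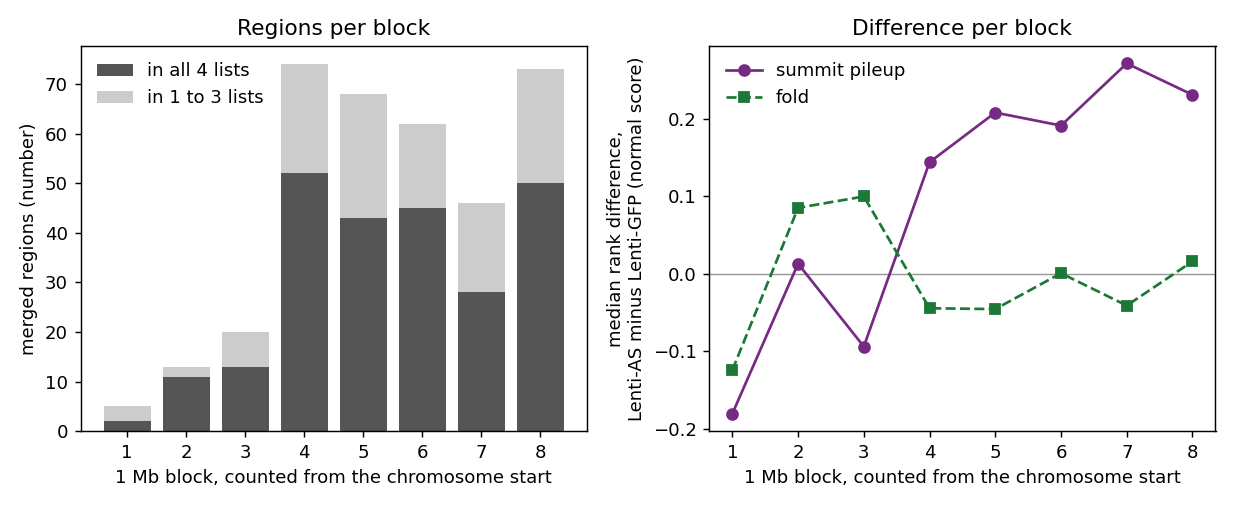
Left, merged regions in each 1 Mb block of the window, split into those in all 4 lists and those in 1 to 3 lists. Right, median difference in normal score, Lenti-AS minus Lenti-GFP, of the members of each block in all 4 lists, by summit pileup and by fold; the pileup medians of blocks 4 to 8 lie between 0.144 and 0.272, and block 1 rests on 2 members.

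Other dense windows showed a shift of the same direction. The regions in all 4 lists gave a median difference for 301 windows with at least 20 of them. By pileup the start of chr20 was in place 2, where the windows had a median of -0.0267 and a range of -0.339 to 0.193, and by local background it was in place 5. Only the window of chr12 from 32000001 to 40000000 was higher by pileup, with 0.193, and parts of chr10 and chr19 followed. Across the 301 windows the median difference in pileup rose with the number of regions in the window (Spearman rho 0.77, Pearson r 0.76), and that in local background did so too (0.80 and 0.79). The median difference in fold fell with it in these regions (-0.41 and -0.42) but was hardly related to it over the 311 windows of regions in at least 2 lists (0.04 and 0.10). By fold in all 4 lists the start of chr20 was in place 244. These are descriptions across windows that share the same 4 libraries. Among the 32 densest windows, with 285 to 445 regions each, the difference in pileup had a median of 0.0848 and was positive in 29, and the start of chr20 was the highest of them. In the rest of chr20 the median difference in pileup was 0.0522, with 60.1% of 624 regions positive, and that in local background was 0.103.

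**Figure D5:**
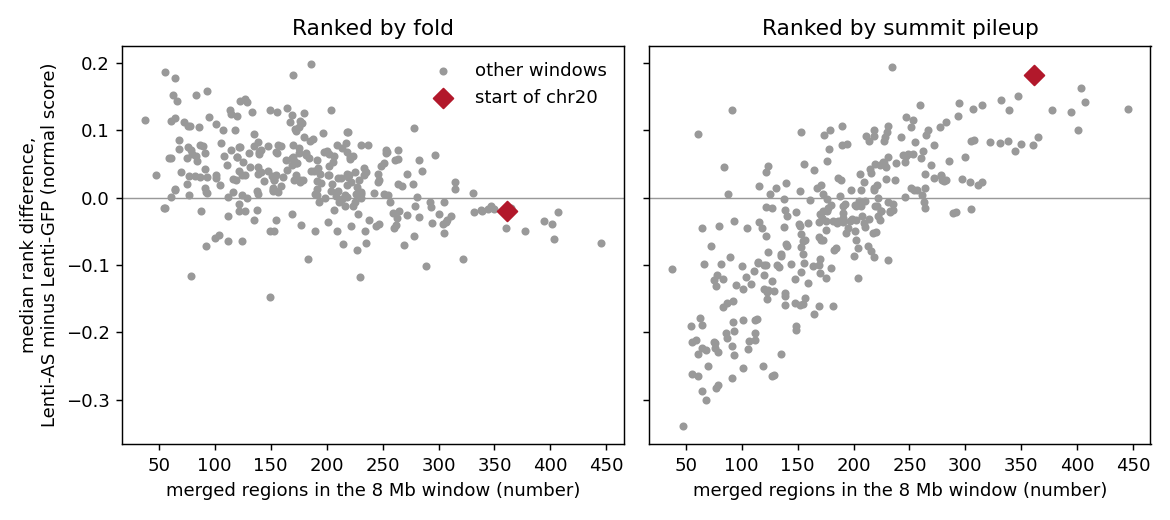
Median difference in normal score, Lenti-AS minus Lenti-GFP (vertical axis), of the regions in all 4 lists, against the number of merged regions (horizontal axis) for the 301 windows of 8 Mb with at least 20 regions in all 4 lists, ranked by fold (left) or by summit pileup (right). Each point is 1 window; the start of chr20 (red diamond) lies at -0.0198 by fold and 0.181 by pileup, where pileup differences rise with density.

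The libraries also differed in how far summits stood above the genome-wide background. In the window the median pileup was 28.2 and 22.6 times that background in the Lenti-AS libraries and 14.6 and 22.7 times in the Lenti-GFP libraries, and over the complete lists it was 20.1, 16.0, 10.6 and 19.2 times. The groups overlapped by a narrow margin in the window. The part of this ratio, of depth and of the density of regions in the shift by pileup was not tested. With 2 libraries per group, an effect of the virus and a difference in the quality or handling of the libraries cannot be told apart.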

How the data were processed

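The study's 4 ATAC-seq libraries entered as peak lists, grouped and numbered by the labels. According to its methods, the authors aligned paired-end reads to rn6 with bowtie2, removed duplicates with Picard and ran MACS2 on each library. Versions, caller options and any shift of reads for the transposase are not given in the sources used here. The deposited fold is a ratio of summit pileup to local background, with 1 added to each. The deposited −log10 p and −log10 q grow with depth, and the deposited score restates the −log10 q.

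Pileup and background were recovered as the pair that gives the deposited fold and −log10 p, within 0.001 of the latter. Relative depth is the lowest background divided by the smallest peak width, and read totals were not analysed here, so no counting interval is given. Positions are counted from 1. Ranks were taken within each list over regions in at least 2 lists, or in all 4 where stated. Their normal scores went into limma (3.58.1, R 4.3.3) with Benjamini-Hochberg adjustment, a step checked on simulated scores. Values per library were compared by exact permutation over 6 assignments. A mean percentile averages over the lists that hold a region. Windows were 8 Mb from each chromosome start.

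The members, lists and tests were chosen with earlier results of these data known. Named regions were up to 5 found only in each group and 5 in all 4 lists by mean percentile of fold, the 5 widest, the 5 largest differences each way and the 3 runs with the most regions, where a tie among runs went to the shorter. Regions outside this rule are marked in the text or are edge, gap or run members. Alternatives were a stricter −log10 q, equal list sizes, pileups and backgrounds scaled down to the shallowest list's background with weaker peaks dropped (which matches background only), 50% coverage, other rankings and filters, a replicate block, shifted or partial windows and leaving out each library. Ranking by local background, ranking by pileup in all 4 lists and the block on other rankings were chosen after seeing the data. Gene lists and cell type markers were not used, as they need an rn6 annotation and none was used here.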

Additional observations from a re-analysis of the deposited data

How the results depend on the processing

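The difference in peaks in the window, 28.5 in the report, was -4.5 to 61.5 with 1 library left out, and the difference in share was -0.00900 to 0.119 percentage points. The direction turned without Lenti-GFP replicate 2 for the first and without Lenti-GFP replicate 1 for the second. With backgrounds scaled to the shallowest list, the Lenti-AS-only members numbered 19 (against 4.94% of all regions) and the Lenti-GFP-only members 0 (0.972%). The latter were 0 at a −log10 q of at least 5 (1.17%) and 3 at equal list sizes (2.54%). Leaving out 1 library gave 12 to 47 Lenti-AS-only members, against 2.10% to 13.8% of all regions, and 1 to 23 Lenti-GFP-only members, against 1.95% to 16.2%.

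The median difference of the members, -0.000580 by fold, was 0.137 when ranked by −log10 p and 0.148 by pileup. By fold it was -0.133 to 0.0967 with 1 library left out, the lowest without Lenti-GFP replicate 1. By pileup, 0.181 in regions in all 4 lists, it was 0.148 in regions in at least 2 lists and 0.138 to 0.215 with 1 library left out. By local background, 0.174, it was 0.122 in regions in at least 2 lists and 0.150 to 0.204 with 1 library left out. The place of the window was 9 by density with shifted windows. By strength it was 291 with partial windows included, 9 by −log10 p and 8 by pileup, and by difference it was 2 by −log10 p, 2 by pileup and 3 by local background, or 2 and 5 by the last measures in regions in all 4 lists.

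The replicate block gave 0 adjusted calls among the members on the scores of the report, where it called 0 of 46625 regions. Leaving out any library by fold also gave 0 members, while over all regions limma then called 352 lower of 43915 without Lenti-AS replicate 1, 899 lower and 2 higher of 42025 without Lenti-AS replicate 2, and 0 without either Lenti-GFP library. Limited to regions in all 4 lists it gave 1 lower member (52 lower of 31790 regions), and by local background 1 higher (12 higher of 31790). The deviations of same-numbered libraries had a correlation of -0.232. This cannot decide whether the numbers pair libraries, as the deeper library was replicate 2 in Lenti-AS and replicate 1 in Lenti-GFP. Crossed numbers gave 0 calls on the scores of the report. In regions in all 4 lists they gave 2 lower members (364 lower and 146 higher of 31790 regions). By local background the median difference of the members was 0.204 without Lenti-AS replicate 2, a fit with a lone Lenti-AS library. What causes these changes was not tested.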
